A study of Mus musculus with 20 samples.

Results

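Wild-type lineage-negative bone marrow cells cultured with macrophage colony-stimulating factor (M-CSF) were compared with freshly sorted wild-type common myeloid progenitors (CMPs). The comparison rests on 7 of the 20 arrays of the study, 4 of the cultured cells and 3 of the CMPs, chosen by their titles alone. All mice were female on a C57BL/6 background. The cultured cells were sorted as lineage-negative and kept for 12 hours in vitro with M-CSF at 10 ng/ml, and the CMPs were lysed after sorting without culture. The sorted population, the time in culture and M-CSF therefore differ together between the groups, and their parts in any difference below cannot be told apart. Any difference in how cultured and fresh samples were handled, amplified or run would be confounded with these as well, and was not tested. The other 13 arrays were 3 of wild-type granulocyte-macrophage progenitors (GMPs) and 10 of CreER-Rptor-flox/flox cells, labelled CreER-Raptor, in the same populations (4 cultured, 3 CMP and 3 GMP). The promoter of CreER, any inducing agent and the sorting markers are unknown here. Nothing in the labels says whether replicates came from separate mice, so p-values measure the spread between these arrays, which may be technical. Levels are the deposited log2 values of 22180 genes, 1 probe set for each, and a difference of 1 on this scale is 2-fold.

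Lineage-negative marrow is the fraction left when cells carrying surface markers of mature blood lineages are removed. It holds stem cells and progenitors of many kinds, whereas the CMP gate takes a narrow band of it that can form red cells, megakaryocytes, granulocytes and monocytes. M-CSF acts through the receptor tyrosine kinase Csf1r, and in myeloid progenitors it is known as a growth, survival and differentiation signal for monocytes and macrophages. Raptor, the product of Rptor, is the scaffold of mTOR complex 1, which couples growth signals to ribosome production, translation and lipid synthesis.

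Array medians over the probe sets lay between 5.06 and 5.18, and every pair of arrays within a group correlated at 0.986 or more. The spread of an array's genes around their group means was larger in the cultured wild-type cells (SD 0.183 to 0.225 log2) than in the wild-type CMPs (0.116 to 0.139). Kit, the stem cell factor receptor that marks early progenitors, stood at 10.67 to 10.81 in the 3 CMP arrays, and Cd34 at 10.55 to 10.76. Transcripts of some surface markers of mature lineages were present in the cultured cells: Cd3e measured 7.89, 7.92, 7.09 and 7.25 there against 4.63 to 5.17 in CMPs, and Itgam (CD11b) measured 9.80 to 10.57 against 8.40 to 8.67. Rptor itself stood at 8.51 to 8.72 in wild-type and 8.20 to 8.45 in Raptor-floxed CMPs, and at 6.95 to 7.34 and 6.83 to 7.06 in the cultured cells. The genotypes overlapped in the cultured cells, and whether the probe set covers the floxed part of the gene is unknown here. Where a transcript is lower in these bulk samples, fewer cells of a type and less RNA per cell cannot be told apart.

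One property of the probe sets bears on every rise below. Probe sets on this array are numbered mostly along each chromosome strand, so the neighbours in number order show on which strand a set lies. This placement was inferred from the numbering and is not stated in the annotation. Of the single-gene probe sets, 571 lay among neighbours from the strand opposite to their gene and 16625 among neighbours of their own strand. Of the opposite-strand sets, 31.5% were at least 2-fold higher in the cultured cells (median difference 0.34), against 4.97% of the own-strand sets (median -0.08). Their 75th percentile level was 6.603 to 6.63 on the 4 cultured wild-type arrays and 5.33 to 5.39 on the 3 CMP arrays, with no overlap. It was 6.65 to 6.71 on the cultured Raptor-floxed arrays and at most 5.49 on all 12 arrays of fresh cells. Of 533 genes with a set of each kind, the opposite-strand set differed by at least 1 log2 unit more in 182 and by at least 1 less in 7. The part of strand in these results was not tested beyond the recount with own-strand sets given below. Of the sets kept for the 1092 genes called at least 2-fold higher, 24 were opposite-strand, 757 own-strand, 267 could not be placed, 41 were unclear and 3 lay among sets of another chromosome. Among all kept sets, 18.75% of the 128 opposite-strand sets were at least 2-fold higher. The share was 4.66% for own-strand and 8.07% for unclear sets. Counting every set, kept or not, 18.1% of unclear sets were at least 2-fold higher and 5.24% lower. For sets among another chromosome the shares were 12.2% and 18.3%.

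**Figure D1:**
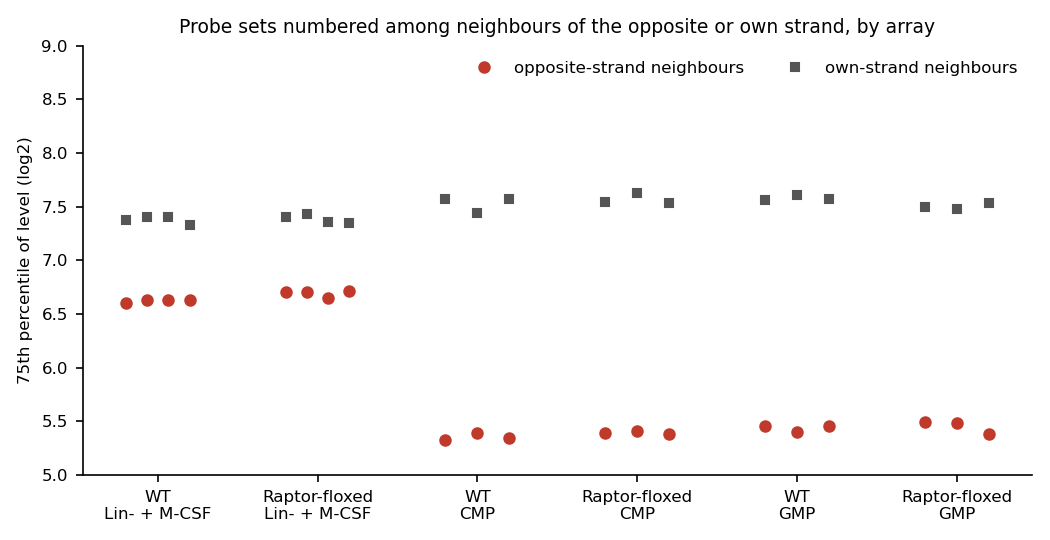
The 75th percentile of the log2 level over probe sets numbered among opposite-strand neighbours (571, red circles) and own-strand neighbours (16625, grey squares), 1 point per array. The 8 arrays of cultured cells stand at 6.603 to 6.71 for opposite-strand sets and the 12 arrays of fresh cells at 5.33 to 5.49, while own-strand sets lie slightly lower in the cultured cells.

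The cultured cells differed from CMPs in a large part of the genes measured. In one limma fit of all 20 arrays with Benjamini-Hochberg adjustment, 10014 of 22180 genes (45.1%) passed an adjusted p of 0.05, with 3761 (17.0%) higher and 6253 (28.2%) lower in the cultured cells. With a difference of at least 1 log2 unit as well, 2500 genes (11.3%) were called: 1092 (4.92%) higher and 1408 (6.35%) lower. The median difference of all genes was -0.08. The balance of the directions turned with the scaling: after cyclic loess between arrays 4815 genes were higher and 4748 lower, and at 2-fold 1420 were higher and 862 lower. With own-strand probe sets only, chosen as an alternative after the data were seen, 2758 of 16447 genes were higher and 4724 lower. The arrays of the groups did not overlap for 10352 genes (46.7%). The rises reached further than the falls, with 98 genes at least 3 log2 units higher and 22 at least 3 lower.

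The 15 largest rises held 4 kinds of gene. The first were genes of monocytes, macrophages and neutrophils. Gpnmb, a glycoprotein of lysosomes and phagocytic membranes, stood at 10.35, 10.29, 10.38 and 10.62 in the cultured cells and at 4.72, 4.72 and 4.11 in CMPs, a difference of 5.90 ± 0.17 (SE; limma adjusted p = 9.9e-17). Clec4a3, a C-type lectin receptor of myeloid cells, stood at 8.96 to 9.63 against 4.21 to 4.70 (5.00 ± 0.17), and Msr1, the class A scavenger receptor that takes up modified lipoproteins, at 7.84 to 8.89 against 3.40 to 3.55 (4.78 ± 0.20). Stfa2l1, a stefin-type protease inhibitor of neutrophils, gave the largest difference of all, 6.00 ± 0.30, with cultured levels of 10.29, 9.89, 11.46 and 9.88. Saa3, an acute phase protein, rose by 4.74 ± 0.36 and Klra2, a Ly49 family receptor, by 4.94 ± 0.30. Clec4a and stefin A genes have close copies, so their probe sets may share signal.

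The second kind were genes of early lymphoid cells. Il7r, the interleukin-7 receptor chain that lymphoid progenitors need, stood at 9.23, 9.19, 8.89 and 9.21 in the cultured cells and at 3.72, 3.84 and 4.20 in CMPs (5.21 ± 0.17, adjusted p = 6.13e-16). Dntt, the template-independent polymerase of antigen receptor gene assembly, stood at 9.23 to 9.54 against 4.39 to 4.77 (4.75 ± 0.16). Ly6d, a surface protein of B-lymphoid and plasmacytoid dendritic precursors, stood at 10.43 to 10.61 against 5.54 to 6.03 (4.75 ± 0.19). In every one of these the 2 groups were separated by over 4 log2 units between the nearest arrays.

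The third kind was the muscle form of a respiratory chain subunit, Cox6a2, at 10.02 to 10.06 against 4.84 to 5.55 (4.85 ± 0.17). The fourth were broadly expressed genes: Vmp1 of autophagosome membranes (5.60 ± 0.13), the Myc antagonist Mxi1 (5.53 ± 0.12), the ATP synthase subunit Atp5d (4.95 ± 0.10), the myosin light chain Myl12a (4.83 ± 0.13) and the chromatin remodeller Chd3 (4.82 ± 0.12). The kept sets of Vmp1, Mxi1, Atp5d and Myl12a were opposite-strand sets. The other probe set of each gene that had one gave 2.24 for Mxi1, 0.60 for Atp5d, 0.60 for Myl12a and 0.34 for Chd3, so the size of these 4 rises depends on the probe set.

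With small RNA and predicted genes passed over, the largest falls were led by red cell genes. Car1, the carbonic anhydrase abundant in early erythroid cells, stood at 5.34, 5.19, 4.26 and 5.80 in the cultured cells and at 11.13, 11.21 and 10.86 in CMPs (-5.92 ± 0.37, adjusted p = 3.23e-11). The blood group and membrane proteins of red cells followed: Ermap (-4.002 ± 0.32), Rhag (-3.78 ± 0.35), Kel (-3.51 ± 0.26) and Rhd (-3.21 ± 0.25), with the water channel Aqp1 (-3.58 ± 0.22). Rhag, for example, stood at 3.97 to 4.88 against 8.18 to 8.55. The carboxylesterase Ces2g fell by 5.56 ± 0.26, with 9.06 to 9.54 in CMPs and 3.45 to 4.05 in the cultured cells. The remaining 8 were Slc38a5, a glutamine transporter (-3.47), Cd59a, a complement inhibitor (-3.23), Nxpe2 (-3.19), Gcn1 (-3.10), C1qtnf12 (-3.05), the protease Ctse (-3.05), the mitochondrial carrier Slc25a21 (-3.04) and Epdr1 (-2.95). The second probe set of Gcn1 gave -1.06.

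Wild-type GMPs, measured fresh, give a second point of reference. Over the 1092 genes called 2-fold higher the median difference was 1.48 against CMPs and 1.47 against GMPs, and GMPs differed from CMPs by a median of 0.05. For the 1408 genes called lower the same medians were -1.29, -1.32 and 0.01. These 3 differences share arrays and are given only side by side. Some lists counted below were otherwise. Their medians for GMPs minus CMPs and for cultured cells minus GMPs were -2.02 and -0.10 for erythroid genes and 1.79 and -0.45 for eosinophil genes. They were 0.31 and 0.12 for lysosome and V-ATPase genes, and 0.39 and 0.99 for monocyte and macrophage genes. Of the 15 largest falls, Ermap averaged 5.23, Rhag 4.90 and Aqp1 5.40 in GMPs, near the cultured cells, while Gcn1 averaged 10.78.

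**Figure D2:**
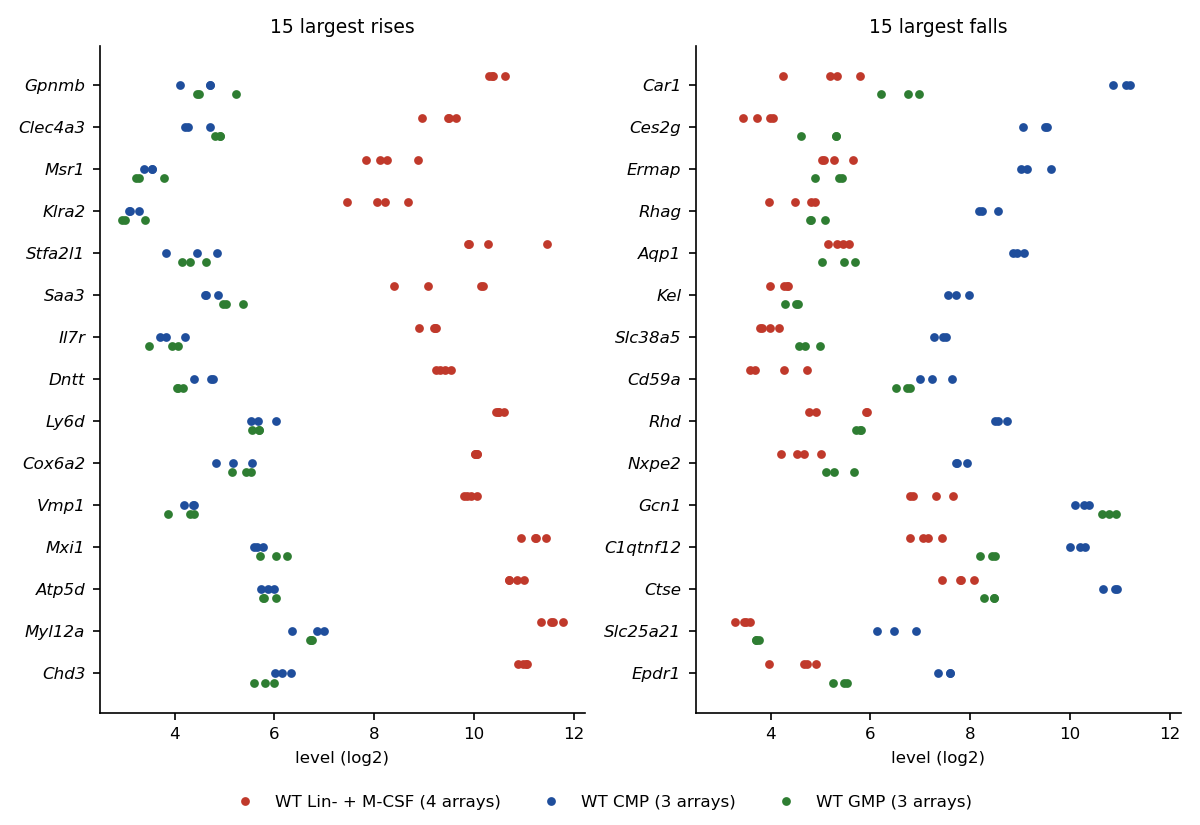
Log2 levels by array of the 15 named genes with the largest rises (left) and the 15 named genes with the largest falls (right). Points are red for the 4 cultured wild-type arrays, blue for the 3 CMP arrays and green for the 3 GMP arrays. The cultured arrays do not overlap the CMP arrays for any of the 30 genes, and GMPs lie with CMPs for the rises and mostly nearer the cultured cells for the falls.

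Receptors for growth factors differed in both directions. Csf1r, the receptor that M-CSF binds, stood at 9.78, 9.94, 9.98 and 9.95 in the cultured cells, at 8.87, 8.86 and 8.78 in CMPs and at a mean of 9.48 in GMPs. The difference from CMPs was 1.08 ± 0.10 (adjusted p = 1.19e-08), 2.11-fold. The GM-CSF receptor chain Csf2ra rose by 0.66 ± 0.14, and the common beta chains Csf2rb and Csf2rb2 by 0.33 ± 0.11 and 0.88 ± 0.18. The rise of Csf2rb did not pass without CMP replicate 3 (0.30, adjusted p = 0.0689) or cultured replicate 2 (0.28, adjusted p = 0.0555). The tumour necrosis factor receptor Tnfrsf1b (1.496 ± 0.13) and the interleukin-10 receptor chain Il10ra (1.60 ± 0.15) rose.

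Receptors of earlier stages and other lineages were lower. Kit fell by 1.78 ± 0.11, from 10.67 to 10.81 in CMPs to 9.12, 9.18, 8.74 and 8.73. Epor, the erythropoietin receptor, fell by 2.34 ± 0.20, the shared cytokine chain Il6st by 1.44 ± 0.14 and the interleukin-3 receptor chain Il3ra by 0.73 ± 0.11. Cd34 fell by 0.57 ± 0.14, but after cyclic loess its difference was -0.32 with an adjusted p of 0.0711. Flt3, the receptor of lymphoid-primed and dendritic progenitors, differed by -0.35 ± 0.16 (adjusted p = 0.0854), and by -0.50 (adjusted p = 0.0298) without CMP replicate 3. Csf3r, the G-CSF receptor, stood at 9.71, 9.67, 10.69 and 9.60 against 9.81 to 10.14 (-0.06 ± 0.18, adjusted p = 0.827). Without cultured replicate 3, whose array stood above the rest, it was -0.31 with an adjusted p of 0.0365. Over the 17 tested receptors and ligands of this kind, 7 were higher and 5 lower, with a median of -0.16 against -0.08 for all genes.

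Of 25 tested transcription factors known in macrophages, 18 were higher and 1 lower (11 higher at 2-fold; median 0.73). Over all genes 17.0% were higher and 28.2% lower, and 4.92% higher at 2-fold, and these are the shares beside which every list count below stands. Spi1, which encodes PU.1, the factor that macrophages need to form, stood at 9.10, 9.37, 9.47 and 9.14 against 7.45, 7.26 and 7.53 (1.86 ± 0.11, adjusted p = 1.12e-11). Klf4, a factor of monocyte formation, rose by 2.27 ± 0.14 from 5.95 to 6.01 in CMPs, with GMPs at a mean of 7.89. Maf, a factor of mature macrophages, rose by 3.85 ± 0.22 (0.98 in its other probe set), and the helix-loop-helix inhibitors Id2 and Id3 by 2.88 ± 0.15 and 3.10 ± 0.16. Bhlhe40, a repressor that acts in macrophage proliferation and cytokine control, rose by 2.45 ± 0.14. Of the C/EBP factors of granulocytes and monocytes, Cebpb rose by 1.69 ± 0.15, Cebpe by 1.20 ± 0.16 and Cebpa by 0.53 ± 0.12. The immediate early factor Egr2, a target of M-CSF signalling, rose by 0.62 ± 0.12.

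Irf8, the factor that directs progenitors to monocytes and away from granulocytes, did not pass in its kept probe set: 9.38, 9.56, 9.30 and 9.54 against 9.83, 9.79 and 9.49 (-0.26 ± 0.17, adjusted p = 0.215). Its second set differed by 4.61, so the gene's direction depends on the probe set. Mitf, a factor of osteoclasts and macrophages, stood at 6.67 to 6.98 against 6.67 to 6.78 (0.10 ± 0.11, adjusted p = 0.508). The factor below CMP level was Runx1, a core regulator of blood progenitors (-0.85 ± 0.10). Among factors of other lineages, Gata1 of red cells and megakaryocytes fell by 1.16 ± 0.14 while Gata2 differed by 0.08 ± 0.17 (adjusted p = 0.73).

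**Figure D3:**
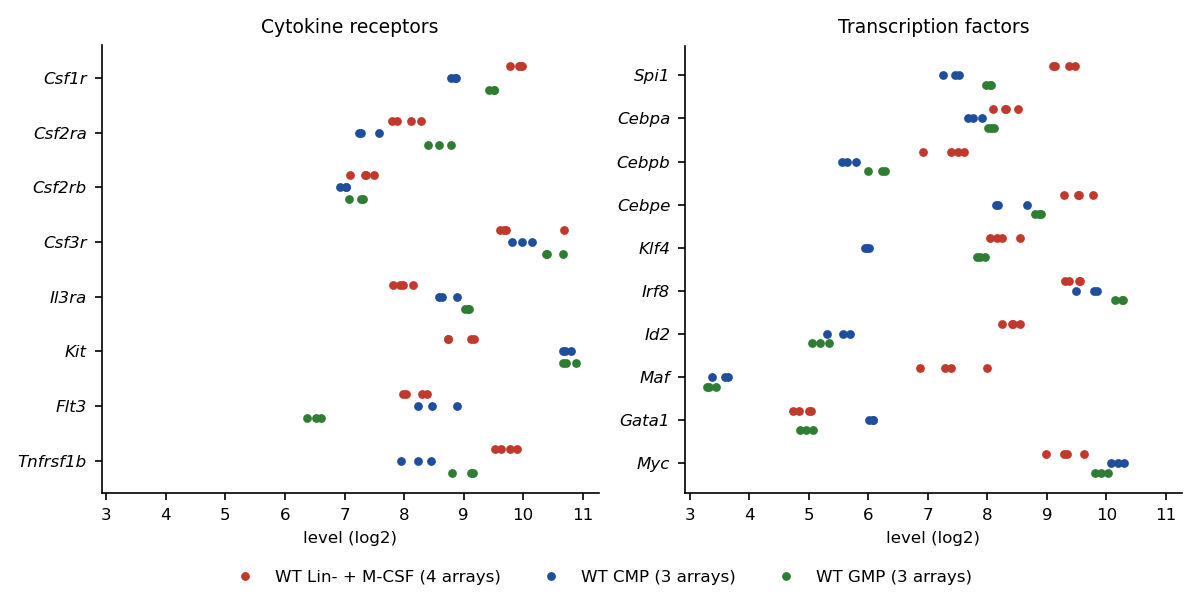
Log2 levels by array of 8 cytokine receptors (left) and 10 transcription factors (right) in cultured wild-type cells (red, 4 arrays), CMPs (blue, 3 arrays) and GMPs (green, 3 arrays). Csf1r, Spi1, Cebpb, Cebpe, Klf4, Id2 and Maf are above CMPs in all 4 cultured arrays, Kit, Il3ra, Gata1 and Myc are below, and Csf3r and Irf8 overlap.

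Monocyte and macrophage genes had the highest median of the myeloid cell lists. Of 34 tested, 25 were higher and 2 lower, 24 of them higher by at least 2-fold, against 4.92% of all genes, and their median was 1.72. Their mean level was 9.03 to 9.17 on the cultured arrays and 7.44 to 7.50 on the CMP arrays. Clec4a1, a C-type lectin receptor, stood at 8.63, 8.50, 8.44 and 8.70 against 3.77, 3.82 and 4.10 (4.67 ± 0.09), and Vcan, the matrix proteoglycan of monocytes, at 7.95 to 8.43 against 3.50 to 3.59 (4.67 ± 0.12). S100a4, a calcium-binding protein of motile cells, rose by 3.95 ± 0.14, with cultured levels of 11.24 to 11.76. Fcgr1, the high-affinity IgG receptor, rose by 3.13 ± 0.18, Fn1, fibronectin, by 2.47 ± 0.16, Cd68, a lysosomal glycoprotein of macrophages, by 2.20 ± 0.10, and Adgre1, an adhesion receptor that marks macrophages, by 2.00. Ly6c2, a marker of classical monocytes, was already at 12.10 to 12.19 in CMPs and did not differ beyond its spread (-0.11, adjusted p = 0.379). The 2 lower members were Ms4a6c (-0.69 ± 0.11) and Emb (-0.61 ± 0.12), both already high in CMPs. Averaging its probe sets turned Emb to 0.45. Cd163 and Mrc1, both known in resident tissue macrophages, did not pass, at 4.33 to 4.73 and 4.58 to 5.43 in the cultured cells. Markers of such macrophages were not counted as a group. Cd163 passed as lower without CMP replicate 1 (-0.41, adjusted p = 0.0171) and Mrc1 as higher without cultured replicate 3 (0.41, adjusted p = 0.0485).

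Scavenger and phagocytic receptors followed, with 18 of 27 higher and 4 lower (10 higher at 2-fold; median 0.72). Beside Msr1, Clec4d, a lectin that senses mycobacterial lipid, rose by 3.41 ± 0.31 and Lpl, the lipase of lipid uptake, by 3.19 ± 0.33. Both were highest on cultured replicate 3, at 9.34 for Clec4d against 7.96 to 8.03 on the other arrays and at 8.24 for Lpl against 5.99 to 6.86. The signal adaptors Tyrobp (1.56 ± 0.12) and Fcer1g (1.29 ± 0.10) rose from CMP levels above 10 on the log2 scale. Fcgr3, the low-affinity IgG receptor used in gating GMPs, rose by 0.63 ± 0.13, and Fcgr4 by 1.79 ± 0.23. Of 29 lysosome and V-ATPase genes, 18 were higher and 4 lower (10 higher at 2-fold; median 0.53). The cathepsins Ctsl (3.09 ± 0.13) and Ctss (2.24 ± 0.14), the protease Lgmn (2.12 ± 0.16), the cholesterol-binding Npc2 (1.46 ± 0.09) and the membrane protein Lamp1 (1.14 ± 0.09) were among the clearest. Of 18 genes of cholesterol efflux and the LXR receptors, 11 were higher and 3 lower. The apolipoprotein Apoc2 rose by 3.10 ± 0.17, while Mylip and Lpcat3, both known LXR targets, fell by 1.45 ± 0.12 and 1.13 ± 0.09.

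To show where motif matches lie, the 250 bases before a RefSeq start are printed for 5 members of 3 lists. Capitals mark only matches to the motifs named here for each gene, and matches to other scanned motifs are not marked. The 5 were chosen for their matches after their values were seen. Fcgr4 holds the ETS and PU.1 core GAGGAAGT on the reverse strand. Msmo1 and Mvd, of cholesterol synthesis, and Mcm5, of DNA replication, hold the CCAAT box CCAATCA. Mcm7, also of DNA replication, holds the CCAAT box and the E2F site TTTCCCGC on the reverse strand. Its 3 matches therefore read TGATTGG and GCGGGAAA as printed. RefSeq gives Mcm7 a second start, and the 250 bases before that one (chr5:138171267-138171516, not printed) hold neither motif. Positions are GRCm38.p6: Fcgr4 at chr1:171018676-171018925 on the plus strand, Msmo1 at chr8:64733579-64733828 on the minus strand, Mvd at chr8:122443423-122443672 on the minus strand, Mcm5 at chr8:75109259-75109508 on the plus strand and Mcm7 at chr5:138171884-138172133 on the minus strand.
Fcgr4: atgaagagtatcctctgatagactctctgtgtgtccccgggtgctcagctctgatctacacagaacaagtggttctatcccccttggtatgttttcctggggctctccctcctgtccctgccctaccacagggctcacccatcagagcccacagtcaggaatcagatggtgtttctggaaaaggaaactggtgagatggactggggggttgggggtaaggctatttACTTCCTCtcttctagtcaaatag
Msmo1: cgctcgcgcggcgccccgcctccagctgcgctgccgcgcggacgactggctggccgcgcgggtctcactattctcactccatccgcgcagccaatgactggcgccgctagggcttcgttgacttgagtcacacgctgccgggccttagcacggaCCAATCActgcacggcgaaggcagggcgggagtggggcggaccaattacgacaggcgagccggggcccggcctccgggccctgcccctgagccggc
Mvd: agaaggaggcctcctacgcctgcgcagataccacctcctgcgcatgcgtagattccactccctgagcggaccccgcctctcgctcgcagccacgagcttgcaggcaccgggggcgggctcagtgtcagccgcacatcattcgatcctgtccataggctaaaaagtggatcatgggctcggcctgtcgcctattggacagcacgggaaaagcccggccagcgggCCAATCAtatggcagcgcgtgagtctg
Mcm5: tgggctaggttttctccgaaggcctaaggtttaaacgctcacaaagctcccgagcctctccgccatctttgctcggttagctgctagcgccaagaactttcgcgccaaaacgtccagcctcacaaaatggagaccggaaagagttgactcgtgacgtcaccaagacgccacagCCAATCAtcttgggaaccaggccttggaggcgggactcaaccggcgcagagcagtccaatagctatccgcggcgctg
Mcm7: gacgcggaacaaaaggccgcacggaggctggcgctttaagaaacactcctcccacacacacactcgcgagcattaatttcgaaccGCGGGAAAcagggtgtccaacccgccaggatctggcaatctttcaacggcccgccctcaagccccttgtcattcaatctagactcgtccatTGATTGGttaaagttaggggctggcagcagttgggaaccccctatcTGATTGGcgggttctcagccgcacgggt

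In the 300-base windows from 250 before to 50 after the start, on both strands, GAGGAAGT was in 2.97% of the 20520 promoters of all 16918 matched genes. It was in 6.06% of the promoters of genes called 2-fold higher, 2.15% of those called 2-fold lower and 17.6% (6 of 34) of the monocyte and macrophage promoters. It was also in 13.5% (5 of 37) of the ribosome biogenesis promoters, whose genes were mostly lower. CCAATCA was in 8.61% of all promoters, in 36.0% (9 of 25) of the replication promoters and in 55.6% (10 of 18) of the cholesterol synthesis promoters. It was in 8.35% of the promoters of genes called 2-fold higher and 10.6% of those called 2-fold lower. TTTCCCGC was in 1.41% of all, in 16.0% (4 of 25) of the replication promoters, and in 2.67% and 0.895% of those of genes called 2-fold lower and higher. These motifs were picked from a longer set that was scanned, and most of the others are not given here. Of those, the sterol response core TCACNCCAC was in 1 of 18 cholesterol synthesis promoters (1.22% of all promoters). The C/EBP site TTGCGCAA was in 0 of 34 monocyte and macrophage promoters (0.229% of all). The E-box CACGTG was in 8.10% of all promoters, 9.25% of those called 2-fold higher and 12.97% of those called 2-fold lower. A match is a description of the letters only.

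Chemokine and complement receptors were nearly all higher, with 12 of 13 higher and 1 lower (7 higher at 2-fold; median 1.09). C3ar1, the receptor of complement C3a, stood at 8.52, 7.92, 8.57 and 7.89 against 4.12 to 4.36 (3.99 ± 0.15). Ptafr, the platelet-activating factor receptor, rose by 3.11 ± 0.17, Ccr1 by 2.27 ± 0.21 and Ccr2, the receptor that draws monocytes from marrow, by 1.65 ± 0.15. C5ar1 rose by 3.00 ± 0.33, with cultured replicate 3 at 8.86 and the others at 6.69 to 7.23. Of 26 inflammatory cytokines and chemokines, 15 were higher and none was lower (12 higher at 2-fold; median 0.83). At an unadjusted limma p of 0.05, 15 were higher and 1 lower. The T cell attractant Ccl5 rose by 2.85 ± 0.20, the macrophage chemokines Ccl3, Ccl6 and Ccl9 by 2.37 ± 0.14, 2.34 ± 0.24 and 1.84 ± 0.13, and Tnf by 2.40 ± 0.27. The NF-kB subunit Rela (1.15 ± 0.12), the IkB family member Bcl3 (1.44 ± 0.14) and its inhibitor Nfkbia (0.95 ± 0.12) rose, and 10 of 17 genes of that list were higher and 3 lower.

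Immediate early genes split. Of 19, 10 were higher and 3 lower (7 and 2 at 2-fold). Btg2, an antiproliferative gene (3.32 ± 0.18), Ier3 (2.96 ± 0.13) and Zfp36, which destabilises cytokine mRNA (2.27 ± 0.17), rose. The AP-1 members Jun and Fosb fell, Jun from 8.96, 9.12 and 9.54 in CMPs to 6.83 to 7.31 (-2.12 ± 0.22) and Fosb from 5.92 to 7.41 to 4.02 to 4.50 (-2.29 ± 0.28). CMP arrays spread widely for the heat shock genes Hspa1a, at 4.81, 8.27 and 6.22, and Hspa1b, at 5.19, 6.86 and 5.97, which are near copies of each other. Their falls of 2.14 ± 0.59 and 1.32 ± 0.43 did not pass without CMP replicate 2 (Hspa1a -1.22, adjusted p = 0.071; Hspa1b -0.90, adjusted p = 0.137), and that of Hspa1b not without cultured replicate 4 (-1.15, adjusted p = 0.0505).

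Granule genes were counted in an early and a late list, whose difference was not tested. Of 16 genes of primary granules, which form in promyelocytes, 5 were higher and 8 lower (median -0.30), and after cyclic loess 6 were higher and 7 lower (median -0.04). Differences in this list ran from -1.34 to 1.43, with 2 members higher and 2 lower at 2-fold, and Cebpe rose by 1.20. Among the lower members, the elastase Elane fell by 0.77 ± 0.11, Prtn3, proteinase 3, by 0.93 ± 0.09 and Prss57 by 1.34 ± 0.17. Mpo, myeloperoxidase, fell by 0.54 ± 0.08 but remained at 11.94 to 12.26. Of 21 genes of secondary granules and mature neutrophils, 19 were higher and none lower (14 higher at 2-fold; median 1.14), and no further member passed at an unadjusted limma p of 0.05. Chil3, a chitinase-like protein, rose by 3.42 ± 0.19, Mmp8, the neutrophil collagenase, by 2.87 ± 0.26, S100a9 by 2.47 ± 0.24 and S100a8 by 1.38 ± 0.11. Ltf, lactoferrin, stood at 10.74, 10.74, 12.01 and 10.37 against 9.69 to 10.10 (1.01 ± 0.25), and without cultured replicate 3 its difference was 0.66. That array was the highest for Stfa2l1, Csf3r, Ltf, Mmp8 and Ly6g, the last at 9.84 against 7.18 to 7.62. Without it the neutrophil list had 19 higher and 1 lower (10 higher at 2-fold; median 0.88).

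Eosinophil genes were higher in 4 of 7 and lower in none, also at an unadjusted limma p of 0.05 (median 0.89). Against fresh GMPs the median of the cultured cells was -0.45. Prg2, the major basic protein, rose by 1.79 ± 0.23. The eosinophil peroxidase Epx stood at 7.85, 9.18, 7.21 and 8.75 against 6.84, 6.80 and 8.11, and its rise of 1.00 ± 0.36 (adjusted p = 0.028) was lost in 4 of the 7 fits that left out 1 array. It was also lost with the replicate block (0.96, adjusted p = 0.0529), with only the 7 arrays compared (adjusted p = 0.103) and with a robust trended fit (adjusted p = 0.0568). Mast cell and basophil genes were higher in 7 of 15 and lower in 2. Fcer1a, the IgE receptor chain, rose by 2.10 ± 0.22 and the basophil protease Prss34 by 1.78 ± 0.20.

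Lymphoid and dendritic lists were higher as well. Of 18 B lineage genes, 14 were higher and none lower (11 higher at 2-fold; median 1.74; 15 and 0 at an unadjusted limma p of 0.05). Their mean level was 6.23 to 6.65 on the cultured arrays against 4.64 to 4.69. Beyond Il7r and Dntt, the factor Spib rose by 3.26 ± 0.22, the adaptor Blnk by 3.02 ± 0.19, Cd79a of the B cell receptor by 2.16 and the B cell factor Ebf1 by 2.17 ± 0.25. Pax5, which commits cells to the B lineage, rose by 0.87 ± 0.18, with cultured levels of 4.98 to 5.96. Vpreb3 and Igll1, of the pre-B stage, rose by 2.18 ± 0.26 and 1.56 ± 0.28. The 4 members that did not pass were Bank1, Cd22, Ms4a1 (3.65 to 4.12 against 3.38 to 3.73) and Vpreb1, of the same stage as Igll1 (3.62 to 4.21 against 3.93 to 4.02). Ms4a1 passed as higher without cultured replicate 4 (0.35, adjusted p = 0.0386) and Cd22 without cultured replicate 1 (0.31, adjusted p = 0.0401). Of 19 T, NK and innate lymphoid genes, 12 were higher and 2 lower (median 0.58), with a mean level of 6.02 to 6.33 against 4.97 to 5.15. Klrd1, an NK receptor chain, rose by 4.52 ± 0.20, Cd3g, Cd3d and Cd3e of the T cell receptor complex by 2.75 ± 0.16, 2.69 ± 0.18 and 2.73 ± 0.30, and Cd8a by 2.50 ± 0.12. Of 18 dendritic cell genes, 11 were higher and 1 lower (median 0.81). Siglech, a plasmacytoid dendritic cell lectin, stood at 9.69 to 9.77 against 5.32 to 5.80 (4.20 ± 0.14), and H2-Aa, an MHC class II chain, rose by 2.25 ± 0.20. The stromal and endothelial list had 2 of 19 higher and 8 lower, with Vcam1 up by 2.42 ± 0.23 and Pdgfrb down by 2.28 ± 0.20. The part of cells of these other lineages in the differences was not tested.

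Stem and multipotent progenitor genes were lower in 13 of 29 and higher in 2 (median -0.35). Adgrg1 (-1.89 ± 0.13), Meis1 (-1.34 ± 0.13) and Hoxa9 (-1.02 ± 0.15), all known in stem cells or early progenitors, fell. Angpt1 fell by 1.52 ± 0.13 in its kept set and differed by 0.57 in its other set. Sox4 fell by 1.51 ± 0.18 in its kept set and differed by 1.60 in its other set. Ikzf2 rose by 1.43 ± 0.16. Erythroid genes as a list were lower in 21 of 23 and higher in 2 (17 lower at 2-fold, against 6.35% of all genes; median -2.20), and their mean level was 5.49 to 5.71 on the cultured arrays and 7.46 to 7.56 on the CMP arrays. Klf1, the erythroid master factor, fell by 2.53 ± 0.23. The 2 higher were the transferrin receptor Tfrc (2.06 ± 0.15) and the metallothionein Mt1 (1.23 ± 0.10), which other cell types also use. Of 18 megakaryocyte genes, 5 were higher and 6 lower: Itga2b fell by 1.32 ± 0.14 and Pf4 by 1.23 ± 0.20, while Thbs1, made by macrophages too, rose by 2.76 ± 0.27.

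**Figure D4:**
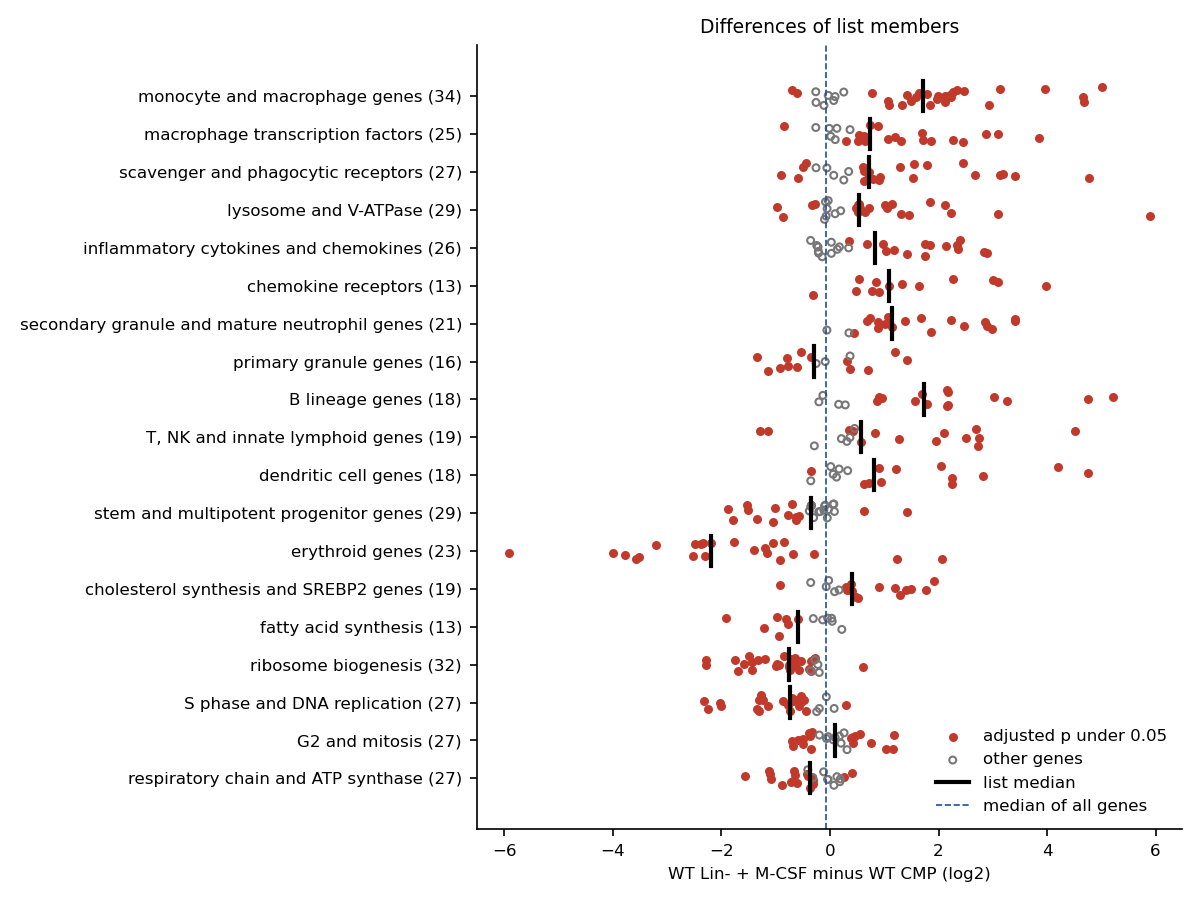
WT cultured minus WT CMP log2 difference of each tested member of 19 gene lists, with the number tested in brackets; red points passed an adjusted p of 0.05, open points did not, the black bar is the list median and the dashed line the median of all genes (-0.08). Erythroid genes (median -2.20) stand lowest and B lineage (1.74) and monocyte and macrophage genes (1.72) highest, and replication and ribosome biogenesis genes lie almost wholly below 0.

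Growth and replication genes were lower. Of 32 ribosome biogenesis genes, 27 were lower, 10 of them by 2-fold, and 1 was higher (median -0.75). Bop1 (-2.29 ± 0.11) and Pes1 (-1.74 ± 0.08) of the PeBoW complex of large subunit maturation, their partner Wdr12 (-1.49 ± 0.11) and the RNA polymerase I subunit Polr1b (-2.28 ± 0.14) fell. Polr1b stood at 6.79, 6.24, 6.57 and 6.25 against 8.85, 8.58 and 8.82. The 1 higher was Nip7 (0.61 ± 0.11). Myc, which drives these genes in many cells, stood at 9.62, 9.30, 9.34 and 8.99 against 10.20, 10.08 and 10.29 (-0.88 ± 0.13, adjusted p = 1.19e-05), and the other Myc network members that passed, among them Max (1.18 ± 0.11) and Mxd1 (1.05 ± 0.22), were higher, 5 in all with Mxi1 counted. After cyclic loess 22 of the ribosome biogenesis genes were lower and the median was -0.49.

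Of 27 S phase and DNA replication genes, 22 were lower, 11 of them by 2-fold, and 1 was higher (median -0.73). The helicase subunit Mcm5, whose promoter is printed above, stood at 8.86, 8.81, 8.88 and 8.60 against 10.89, 10.73 and 10.82 (-2.03 ± 0.09, adjusted p = 3.17e-13). Mcm2 fell by 2.00 ± 0.11, Mcm7 by 1.27 ± 0.13 and the chromatin assembly factor Chaf1b by 2.32 ± 0.15. The polymerase subunit Pole fell by 2.25 ± 0.10 in its kept set and differed by 0.94 in its other, dimmer set. The 1 higher was Gins2 (0.30 ± 0.12, adjusted p = 0.0429), which did not pass in 6 of the 7 fits without 1 array. Genes of G2 and mitosis were divided: 9 of 27 were higher and 9 lower (median 0.10), and after cyclic loess 15 were higher and 3 lower. Ube2c (1.18 ± 0.12) and Cenpf (1.16 ± 0.12) rose, and Mki67 (-0.69 ± 0.11) and Cdc20 (-0.68 ± 0.09) fell. Among G1 regulators the inhibitors Cdkn1b, p27 (2.31 ± 0.16), and Cdkn1a, p21 (1.30 ± 0.14), rose and the kinases Cdk4 (-1.30 ± 0.09) and Cdk6 (-0.93 ± 0.10) fell.

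Cholesterol and fatty acid synthesis were counted as 2 lists, whose difference was not tested. Of 19 cholesterol synthesis and SREBP2 genes, 13 were higher and 1 lower (6 higher at 2-fold; median 0.40). Cyp51 (1.93 ± 0.13), Insig1, which holds the SREBP activator in the endoplasmic reticulum (1.77 ± 0.15), Hmgcs1 (1.49 ± 0.17), Mvd (1.30 ± 0.09) and Msmo1 (1.20 ± 0.14) rose. Mvd stood at 7.86 to 8.04 against 6.50 to 6.80. The 1 lower was Ebp (-0.92 ± 0.11). Of 13 fatty acid synthesis genes none was higher and 7 were lower (median -0.59), among them Fasn, the fatty acid synthase (-1.92 ± 0.12), and Acaca, acetyl-CoA carboxylase (-1.22 ± 0.14). At an unadjusted limma p of 0.05, 8 were lower and none was higher. After cyclic loess 1 of the 13 was higher and 7 were lower (median -0.52).

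Of 27 respiratory chain and ATP synthase genes, 16 were lower and 2 higher (median -0.37), led by Uqcrc1 of complex III (-1.56 ± 0.09) and Ndufv1 of complex I (-1.13 ± 0.09). Of 24 mitochondrial ribosomal protein genes 14 were lower and 3 higher (median -0.41), and of 26 proteasome genes 14 were lower and 1 higher (median -0.25). After cyclic loess these 3 lists had 10 lower and 5 higher, 11 lower and 5 higher, and 7 lower and 8 higher. Glycolysis genes were 6 higher and 7 lower of 20. The lactate carrier Slc16a1 fell by 2.14 ± 0.14 and the glycolytic enzyme Tpi1 by 1.09 ± 0.08. Cytosolic ribosomal proteins gave 11 higher and 8 lower of 26 (median 0.02), and the highest, Rps18 (2.65 ± 0.11), gave 0.11 (adjusted p = 0.624) in its own-strand set.

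Stress and survival lists held genes of both directions. The heme-degrading enzyme Hmox1 rose by 3.61 ± 0.19, and the repressor Bcl6 by 3.38 ± 0.18. The cystine carrier Slc7a11 rose by 3.52 ± 0.41 in an opposite-strand set and differed by 2.01 in its own-strand set. The first set had cultured levels of 5.95, 5.64, 8.24 and 6.11. Mcl1, a survival factor of the Bcl2 family, rose by 2.48 ± 0.11 (5.27 in its opposite-strand set) and Trp53inp1, a p53 target, by 3.01 ± 0.16, while the ER chaperone Hspa5 fell by 0.87 ± 0.11. Bcl2 fell by 0.94 ± 0.13 in its kept set, and the mean of its sets was -0.10 (adjusted p = 0.507). Interferon-stimulated genes had 14 of 24 higher and 5 lower with 1 of each at 2-fold. Among genes of adhesion and movement, 13 of 21 integrin and adhesion genes were higher and 4 lower, with the leukocyte integrin chain Itgb2 up by 2.10 ± 0.16 and Itga4 down by 1.34 ± 0.11, and 15 of 26 actin and cytoskeleton genes were higher and 3 lower. S100a6 rose by 3.08 ± 0.14 and Tmsb4x, thymosin beta 4, by 2.46 ± 0.15. Actg1, gamma actin, differed by 4.32 ± 0.13 in its kept set but by -0.25 (adjusted p = 0.225) in its own-strand set.

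The remaining lists are given by their counts, higher and lower, beside 17.0% and 28.2% of all genes. Several counts were near those shares, among them both counts of the ERK feedback list and the lower count of the NRF2 list. ERK feedback inhibitors had 3 and 3 of 14, with Phlda1 at 1.52, and cytokine signal feedback genes 5 and 3 of 11. Hypoxia-responsive genes had 8 and 4 of 16, NRF2 and oxidative stress genes 5 and 4 of 15, and p53 targets 9 and 5 of 18. ATF4 and amino acid supply genes had 12 and 6 of 24, ER chaperones 4 and 9 of 19, cytosolic heat shock proteins 4 and 6 of 13, and the Bcl2 family 6 and 4 of 14. Translation factors had 5 and 11 of 21, led by the fall of Eif4h (-2.19 ± 0.09), and the TCA cycle 2 and 8 of 17, led by Idh3a (-1.60 ± 0.13). Metallothionein and zinc genes had 1 and 5 of 10 and replication-dependent histones 3 and 3 of 9. FoxO targets had 11 and 3 of 17, with Klf2 at 1.75. Matrix proteases and the plasminogen system had 10 and 0 of 16 (median 1.11; 10 and 0 at an unadjusted limma p of 0.05), among them coagulation factor F10 (2.82 ± 0.13).

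Components of mTOR complex 1 signalling were measured in the same arrays. Of 21, 6 were higher and 8 lower. Rptor fell by 1.51 ± 0.12, from 8.72, 8.51 and 8.68 in CMPs to 7.05, 6.95, 7.34 and 7.17 (adjusted p = 7.72e-10), Mtor fell by 0.77 ± 0.09 and the complex's inhibitor Tsc2 by 1.16 ± 0.11. The lysosomal scaffold Lamtor1 rose by 1.82 ± 0.10 and the Rag GTPase Rragc by 1.86 ± 0.14.

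The same difference was taken in Raptor-floxed arrays, which share no array with the wild-type comparison but come from the same fit. Population, culture and M-CSF differ together there too, and opposite-strand sets were raised in those cultured arrays as well. Agreement therefore cannot tell which rises depend on the probe set. Actg1, for example, differed by 4.32 in wild type and 4.49 in Raptor-floxed arrays in its kept set, and by -0.25 and -0.48 in its own-strand set. In Raptor-floxed arrays 10069 genes (45.4%) passed, 3961 (17.9%) higher and 6108 (27.5%) lower, and at 2-fold 1215 (5.48%) were higher and 1658 (7.48%) lower. Of the 1092 genes called 2-fold higher in wild type, 1005 (92.0%) were called higher and 7 lower in Raptor-floxed arrays. Of the 1408 called 2-fold lower, 1369 (97.2%) were called lower and 4 higher. The erythroid list was lower in 19 of 23 and the ribosome biogenesis list in 29 of 32, with a median of -0.94. The S phase list was lower in 23 of 27 and the B lineage list higher in 14 of 18. Monocyte and macrophage genes were higher in 21 of 34 and lower in 8, with a median of 1.03 against 1.72 in wild type.

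The difference between genotypes was tested as an interaction and passed for 1231 genes (5.55%), 554 (2.50%) above and 677 (3.05%) below 0. Of 34 monocyte and macrophage genes, 14 passed above 0 and 5 below. The largest above 0 were myeloid surface and matrix genes. Clec4a1 differed by 4.67 in wild type and 0.11 in Raptor-floxed cells, and its 4 cultured Raptor-floxed arrays stood at 4.15 to 4.32, near the CMP level. Vcan stood at 3.55 to 3.98 there, Msr1 at 3.57 to 3.99 and Clec4a3 at 5.91 to 6.13. Gpnmb had another pattern: its cultured level was 10.76 to 10.95 in Raptor-floxed cells, above wild type, but Raptor-floxed CMPs were already at 8.60 to 9.09 against 4.11 to 4.72. The interaction adjusted p was 2.16e-15 for Clec4a1, 5.77e-14 for Vcan, 8.07e-10 for Msr1 and 1.06e-09 for Clec4a3 and Gpnmb.

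Among the largest below 0, the CMP level differed for some genes and the cultured level for others. Ltf and Camp, an antimicrobial peptide, rose by 1.01 and 0.89 in wild type and by 4.41 and 4.21 in Raptor-floxed cells. Camp stood at 11.21 to 11.91 in wild-type and 11.03 to 11.19 in Raptor-floxed cultured cells, while in CMPs it stood at 10.39 to 10.76 and 6.67 to 7.29. The gap between genotypes was thus wider in the CMPs. Atp6v0d2, a V-ATPase subunit of osteoclasts and macrophages, Ccl22, a chemokine, and Hcar2, a metabolite receptor, were instead higher in the cultured Raptor-floxed cells: Atp6v0d2 stood at 6.33 to 7.31 there and at 3.23 to 3.65 in wild type. Of 16 primary granule genes, 12 passed below 0 and none above, and of 29 stem and progenitor genes 16 passed below 0 and 1 above.

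**Figure D5:**
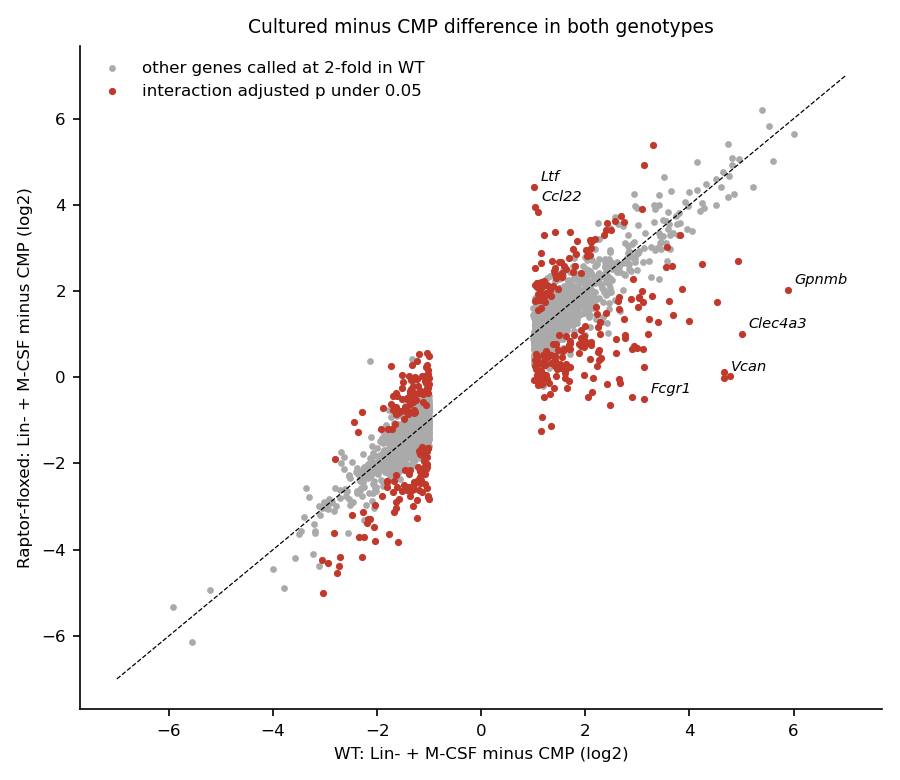
Cultured minus CMP log2 difference in wild type (x axis) and in Raptor-floxed cells (y axis) for the 2500 genes called at 2-fold in wild type, 1 point per gene; red points passed the interaction test and the dashed line marks equal differences. Most genes lie near the line on the same side of 0, while Vcan (4.67 in wild type, -0.01 in Raptor-floxed) and Fcgr1 (3.13 and -0.50) lie far below it.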

How the data were processed

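The deposited values are log2 intensities from whole-transcript mouse arrays that the authors normalized by RMA; the submitters' processing notes name Partek 6.6, RMA and limma. Per the labels, 1 to 5 ng of total RNA was amplified before hybridisation. No further normalization was applied. Probe sets were named through the platform annotation: 23521 of 41345 name 1 gene, 1814 several and 16010 none. For each of 22180 genes the probe set of highest mean over all arrays was kept. One limma fit (3.58.1, R 4.3.3) of 6 group means over 20 arrays gave each difference with its SE, and p-values were adjusted by Benjamini-Hochberg over all genes. A gene was called at an adjusted p under 0.05, with no filter on dim genes. The fit was tested on simulated data.

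Members and the 52 gene lists were chosen with earlier results of these data known. Genes were named by rule: the 15 largest called differences in each direction with arrays that do not overlap, up to 6 members of smallest p per list, the 5 largest interactions in each direction, and 24 fixed genes, 23 of them tested. Small RNA genes, predicted genes and antigen receptor segments among the largest were passed over (1 higher, 9 lower). The falls passed over were mostly of microRNA and small nucleolar RNA genes, and none was of an antigen receptor segment. Among them was Mir3473c, whose fall was exceeded only by those of Car1 and Ces2g. Other genes named from a list were chosen after their values were seen. Alternatives covered scaling, filters, probe set choice, array weights, left-out arrays and the replicate block. Promoter sequences are from RefSeq (GRCm38.p6).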

Additional observations from a re-analysis of the deposited data

Results flagged for a closer look

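In 14 of the 212 genes named, 1 of the 4 cultured wild-type arrays stood far from the others by the gap over the range (above Dixon's 95% critical value for 4 samples). Chance gives about 1 such array in 20 groups. Cultured replicate 3 was the array in 11 of the 14. It was high for the myeloid genes Csf3r (10.69), Itgam (10.57), Fcgr3 (10.30), Ly6g (9.84) and Clec4d (9.34), and for the heme-degrading enzyme Hmox1 (10.08) and the p53 target Trp53inp1 (8.97). It was low for the lymphoid genes Il7r (8.89), Klrd1 (8.16) and Cd3g (6.12) and for the progenitor factor Meis1 (6.65). Cultured replicate 1 was high for Mcm2 (8.69) and Ccl22 (5.85), and replicate 4 was low for Mylip (7.17). All these values are log2 levels.

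For 65 of the named genes the cultured minus CMP difference itself differed between wild-type and Raptor-floxed arrays, by the interaction term of the limma fit (adjusted p between 2.16e-15 and 0.0461). Values are wild-type minus Raptor-floxed differences in log2 units. The 31 above 0 were led by receptors and matrix genes of monocytes and macrophages. Those of 2 or more were Msr1 (4.74), Vcan (4.68), Clec4a1 (4.56), Clec4a3 (4.01), Gpnmb (3.88), Fcgr1 (3.63), Fn1 (3.12), C3ar1 (2.67), Lgmn (2.47), Apoc2 (2.44), Klra2 (2.25) and Lpl (2.19). The others above 0 were Slc25a21 (1.96), Ly6g (1.96), Ccr1 (1.87), Hmox1 (1.83), Maf (1.81), H2-Aa (1.67), Epor (1.36), Id3 (1.35), Epdr1 (1.35), Blnk (1.19), C1qtnf12 (1.18), Adgre1 (1.15), Ctsl (1.08), Ctss (1.07), Id2 (1.06), Klf4 (0.99), Cyp51 (0.82), Mt1 (0.80) and Cd68 (0.56).

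The 34 below 0 held granule, stem cell and chemokine genes. Those of the largest size were Ltf (-3.39), Camp (-3.32), Ccl22 (-2.92), Atp6v0d2 (-2.79), Hcar2 (-2.74), Cebpe (-2.11), Pf4 (-1.60), Sox4 (-1.56), Fosb (-1.50), Irf8 (-1.33), Ccl9 (-1.32), Bcl2 (-1.31), Prss57 (-1.29) and Angpt1 (-1.27). The others below 0 were Itgam (-1.19), Adgrg1 (-1.18), Ikzf2 (-1.11), Ly6c2 (-1.07), Cd3d (-1.06), Cd34 (-0.95), Ccl3 (-0.95), Meis1 (-0.88), Tyrobp (-0.86), Cd3g (-0.85), Fcer1g (-0.83), S100a6 (-0.82), Fcgr3 (-0.80), Hoxa9 (-0.76), Runx1 (-0.75), S100a8 (-0.74), Elane (-0.70), Kit (-0.58), Prtn3 (-0.55) and Mpo (-0.49). Raptor-floxed CMPs also differed from wild-type CMPs for some of these genes, as given above for Gpnmb and Camp, so an interaction can come from either population.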

How the results depend on the processing

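Counts of called genes stayed within 1.5 times their value under the settings tried, except in the test against a 1.5-fold minimum (treat) and, in wild type, the 2-fold lower count after cyclic loess (862 against 1408). That test called 2661 genes in wild type (1100 higher, 1561 lower), 3110 in Raptor-floxed arrays (1275 higher, 1835 lower) and 156 for the interaction (99 above and 57 below 0). Leaving out 1 array at a time gave 8682 to 9708 genes in wild type (3171 to 3725 higher, 5495 to 6072 lower, 2425 to 2633 at 2-fold). It gave 8807 to 9903 in Raptor-floxed arrays (3475 to 3898, 5332 to 6086, 2753 to 2995) and 895 to 1308 for the interaction (403 to 604 above, 481 to 709 below). Same-numbered replicates did not pair (correlations of their deviations 0.03, -0.09 and -0.01), and the fit with the replicate block called 9689 genes in wild type, 9802 in Raptor-floxed arrays and 1250 for the interaction.

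Of the 212 genes named, 171 kept their call and direction in every setting they could be fitted in. Directions turned for Emb (0.45) and Sox4 (0.043) when probe sets were averaged and for Actg1 (-0.25) with own-strand sets, an alternative chosen after the data were seen. Ms4a1 passed after a repeated quantile normalization (0.31, adjusted p = 0.0461) and with the replicate block (0.35, adjusted p = 0.0185). Cyclic loess turned the list medians of glycolysis to 0.18, the TCA cycle to 0.04, translation factors to 0.05, ER chaperones to 0.06 and mTOR components to 0.09; the cause was not tested. Precision is limited by having 4 and 3 arrays. On simulated data of this design 57% of genes changed by 0.5 log2 units and 96% of those changed by 1 were called. The simulation gave a gene the same spread in every group, whereas the cultured arrays spread more than the CMPs. It changed only 100 genes by each size, far fewer than were called here, so these shares may not hold for the data.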

Other observations

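Transcripts of the mitochondrial genome, looked at after their values were seen, did not move together. ND6, the protein gene read from the light strand, averaged 12.07 in cultured wild-type cells and 7.43 in CMPs, a difference of 4.64, and in Raptor-floxed arrays the difference was 4.77. Its gene lies opposite to the heavy-strand genes, and the part of probe set strand in this difference was not tested. The probe sets named for the heavy-strand genes ND4L (2.73) and ND3 (2.51) were higher as well. The ND4L set is numbered far from the other mitochondrial sets. Whether it measures the mitochondrial transcript is therefore unknown here. The other 7 named mitochondrial probe sets lay between -0.61 for COX1 and 0.76 for ND2. ND6 averaged 7.43 in fresh wild-type GMPs, as in CMPs.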
